A study of Mus musculus with 4 samples.

Results

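The genes described here are 10 genes of the switch that lets a resting cell enter the cell cycle. They are the D cyclin genes Ccnd1, Ccnd2 and Ccnd3, the kinase genes Cdk4 and Cdk6, the CDK inhibitor genes Cdkn1a, Cdkn1b, Cdkn1c and Cdkn2c, and Rb1. They were taken by name from a count table of 13742 genes, and all 10 had a row in it. The cells were haematopoietic stem cells (HSCs) from the bone marrow of wild-type mice aged 8 weeks, and no treatment is named. They were sorted singly as cells called ESLAM SK in the labels, which lack lineage markers and CD48 and carry Kit, Sca-1, CD150 and CD201 (EPCR), through a gate for CD27-negative and a gate for CD27-positive cells. The 4 libraries, Cd27L1 to Cd27L4 and here libraries 1 to 4, each name both gates, and no source used here gives the gate of a cell. They therefore form 1 group (n = 4), and no comparison of the gates was made. Whether each library stands for its own mice is not given in the labels, so p-values measure the spread between libraries, which may be technical.

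D-type cyclins are made when a cell receives growth signals and bind CDK4 or CDK6. The active kinases phosphorylate the retinoblastoma protein RB, which then releases E2F transcription factors that switch on genes of DNA replication. The inhibitors p21, p27 and p57 (genes Cdkn1a, Cdkn1b and Cdkn1c) bind cyclin and CDK complexes, whereas p18 (Cdkn2c) binds CDK4 and CDK6 alone. HSCs of adult marrow rest for most of their life, and p57 and p27 are known to help hold mouse HSCs in that state.

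After filtering, 292 of 297 cells remained, 74, 75, 71 and 72 in libraries 1 to 4, with library totals between 5250569 and 11207442 counts and single cells between 10653 and 346876. Each cell was also thinned at random to 30000 counts so that cells of different depth could be compared, which kept 276 cells and left out 16. All 10 markers fixed for HSCs, among them Ly6a, Procr and Kit, had counts, at a summed level of 6105 to 7205 CPM (counts scaled to 1000000 per library), while Cd48, selected against, had a count in 2 cells. Of 8 myeloid markers all had counts, at 1433 to 1636 CPM in sum, and they differed widely. Lyz2 stood at 906 ± 64 CPM in 274 cells, Prtn3 at 491 ± 41 in 256 and S100a8 at 89.5 ± 33.1 in 72, whereas Mpo stood at 1.25 ± 1.32 CPM in 7 cells and Elane had a count in 1 cell (SD, n = 4 libraries). In 3 runs of up to 8 consecutively numbered cells, in libraries 2 and 4, cells resembled each other more than the rest of their library. Levels and tests were also computed without their 19 cells, an alternative chosen after the data were seen. Cell names repeat the same 91 numbers across libraries, barcode sequences were not analysed here, and no 2 cells held identical counts. Counts may include PCR copies, so intervals cover counting error only.

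Ccnd2 was the most abundant of the D cyclins, at a level in CPM above that of 99.1% of all genes in the table. It lies on chromosome 6 of GRCm38, from 127125162 to 127152193 on the minus strand. Its level was 1011, 1033, 827 and 1026 CPM in libraries 1 to 4, a mean of 974 ± 99 (SD, n = 4), where CPM are taken from counts summed over the kept cells of a library. Library 3 stood below the other libraries, which lay close together, but in thinned cells, which all weigh the same, it stood at 943 CPM against 960 to 993. A Ccnd2 count was found in 73 of 74, 70 of 75, 67 of 71 and 69 of 72 cells.

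Ccnd3, the D cyclin gene best known from lymphocytes and red cell precursors, was present at a low level in many cells. It lies on chromosome 17, from 47505051 to 47599691 on the plus strand. Its levels were 64.0, 58.8, 65.5 and 71.9 CPM, a mean of 65.1 ± 5.4 (SD, n = 4), and 154 of 292 cells had a count. Without the runs of cells library 4 stood at 47.0 CPM and the mean was 58.1. The median count of those cells was 6, against 80 for Ccnd2, and 26.0% of them held a single count. The gene for the ribosome factor Bysl overlaps Ccnd3 on the other strand. Whether the counting used strand is not stated, and 23 of the 26 cells with a Bysl count also had a Ccnd3 count.

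Ccnd1, on chromosome 7 from 144929931 to 144939925 on the minus strand, is the D cyclin best known for its response to growth factors in many tissues. It was found in few cells. Its levels were 28.1, 19.7, 36.9 and 38.9 CPM, and it had a count in 9, 4, 13 and 14 cells. The positive cells held a median of 20 counts. Library 2 had the lowest level and the fewest cells with a count.

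Of all D cyclin counts, 91.0% ± 1.7 came from Ccnd2, 6.12% ± 0.75 from Ccnd3 and 2.93% ± 0.97 from Ccnd1 (SD, n = 4). Ccnd2 stood 15.1 ± 2.1 times above Ccnd3 and 34.3 ± 13.4 times above Ccnd1 in CPM. Per kilobase of exon, which corrects for gene length, Ccnd2 stood at 104 ± 10 CPM, Ccnd3 at 7.41 ± 0.61 and Ccnd1 at 6.56 ± 1.88, so that the latter pair overlapped in range. The libraries were enriched for 3′ ends, and their counts need not grow with gene length.

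**Figure D1:**
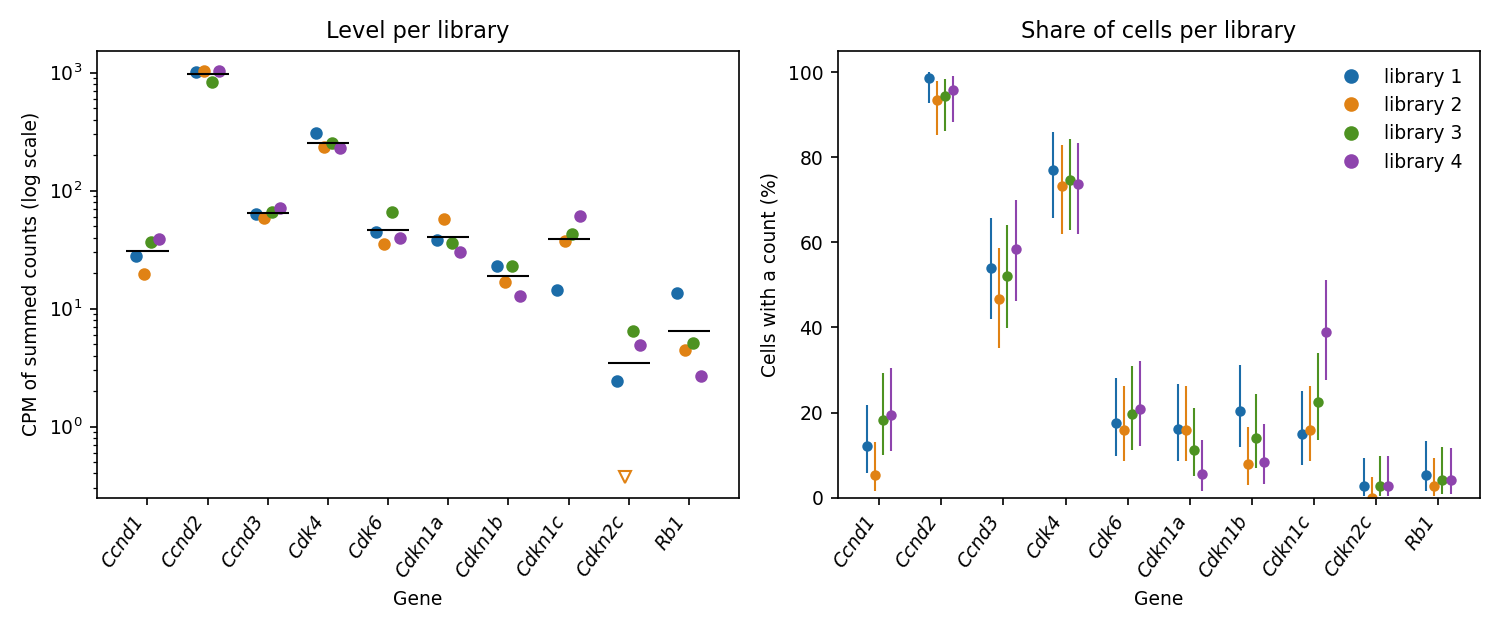
Level of each gene in CPM on a log axis (left, lines are means over libraries) and percent of kept cells with a count (right, bars are exact 95% binomial intervals), 1 point per library. The open triangle is Cdkn2c in library 2, which had 0 counts and is drawn at the level 3 counts would give. Ccnd2 lies above Cdk4 and Cdk4 above Ccnd3 in every library, and Cdkn1c in library 4 has the highest share of cells among the inhibitors.

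Of the CDK genes, Cdk4 was found in most cells and Cdk6 in few. Cdk4 is on chromosome 10, from 127063534 to 127067920 on the plus strand, and Cdk6 on chromosome 5, from 3341485 to 3531008 on the plus strand. The 250 bases before the start that the RefSeq table on GRCm38.p6 gives for each gene are shown because these kinases share their cyclin partners but differed 5.78-fold in CPM. Capitals mark the E-box CACGTG, a motif that reads the same on both strands and is known as a binding site of MYC and MAX. The stretches are chr10:127063285-127063534 for Cdk4 and chr5:3343643-3343892 for Cdk6, both on the plus strand. The RefSeq start of Cdk6 lies inside the gene span given above, which is from GENCODE, so that its stretch is also inside that span.
Cdk4: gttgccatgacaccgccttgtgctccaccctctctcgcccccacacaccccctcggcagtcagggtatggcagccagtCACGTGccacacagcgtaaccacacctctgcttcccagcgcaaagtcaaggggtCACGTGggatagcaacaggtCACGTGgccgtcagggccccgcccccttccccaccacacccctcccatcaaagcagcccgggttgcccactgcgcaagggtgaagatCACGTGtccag
Cdk6: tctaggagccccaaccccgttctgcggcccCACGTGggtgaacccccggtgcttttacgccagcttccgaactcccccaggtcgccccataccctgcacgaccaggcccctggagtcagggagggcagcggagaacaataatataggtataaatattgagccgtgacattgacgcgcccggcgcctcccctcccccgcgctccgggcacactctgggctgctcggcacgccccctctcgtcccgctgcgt

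The Cdk4 stretch held 4 E-boxes, which began 172, 118, 98 and 11 bases before the start, and the Cdk6 stretch held 1, at 220 bases. Of 32851 mouse promoters in the RefSeq table (300 bases each, reaching 50 bases past the start), 7.15% held at least 1 E-box and 8 promoters, 0.0244%, at least 4. Of the 10 genes, 6 had an entry, with 9 promoters in all. Besides Cdk4 and Cdk6, 1 of the Cdkn2c promoters held an E-box. The E2F motifs TTTCCCGC and TTTGGCGC, searched on both strands, occurred in 0 of the 9 and in 1.56% of all promoters. A match describes letters in a window and not a bound site.

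Cdk4 levels were 306, 235, 254 and 228 CPM, a mean of 256 ± 35 (SD, n = 4), and 57 of 74, 55 of 75, 53 of 71 and 53 of 72 cells had a count. Library 1 had the highest level, and the share of cells ran from 73.3% to 77.0%. Cdk6 levels were 44.4, 35.5, 66.5 and 39.5 CPM, highest in library 3, in 13, 12, 14 and 15 cells. Cdk4 therefore held 84.7% ± 3.7 of the counts of both genes. The ratio of Cdk4 to Cdk6 was 5.78 ± 1.39 in CPM, and per kilobase of exon Cdk4 stood at 78.8 ± 10.9 CPM and Cdk6 at 3.32 ± 0.99. Tspan31, which overlaps Cdk4 on the other strand, stood at 3.22 ± 3.97 CPM in 11 cells.

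Each of the 4 CDK inhibitor genes was found in at most 38.9% of the cells of a library, and their summed level was 102 ± 16 CPM. In CPM the D cyclins stood 10.8 ± 2.4 times above them. This ratio leaves out the inhibitor gene Cdkn2d, which is not among the 4 and alone stood at 134 ± 22 CPM. Cdkn1a, which encodes p21 and is a target of p53, lies on chromosome 17 from 29090976 to 29100727 on the plus strand. Its levels were 38.1, 57.1, 35.8 and 30.4 CPM, in 12, 12, 8 and 4 cells, and without the runs of cells library 4 stood at 15.7 CPM. The 10 highest cells held 71.6% of all Cdkn1a counts.

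Cdkn1c, which encodes p57, lies on chromosome 7 from 143458339 to 143461050 on the minus strand, and it differed most between libraries among the inhibitors found in more than a few cells. Its levels were 14.3, 37.7, 42.7 and 61.1 CPM, and 11 of 74, 12 of 75, 16 of 71 and 28 of 72 cells had a count. Library 4 stood highest in both. Its share was 38.9% of cells (exact 95% interval 27.6 to 51.1), against 14.9% (7.66 to 25.0) in library 1. Library 4 was also the deepest, and after thinning its share was 28.6%, against 12.5%, 15.7% and 18.8% in libraries 1 to 3.

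Cdkn1b, which encodes p27, lies on chromosome 6 from 134920401 to 134925513 on the plus strand. Its levels were 22.8, 16.7, 22.9 and 12.8 CPM, in 15, 6, 10 and 6 cells. Cdkn2c, on chromosome 4 from 109660876 to 109667189 on the minus strand, was rare. It had counts in 2, 0, 2 and 2 cells and stood at 2.43, 0, 6.48 and 4.91 CPM, with library 4 at 1.76 without the runs of cells. The 0 of 75 cells in library 2 allows a share of up to 4.00% of cells with a count by the limit of 3 counts, and of up to 4.80% by the exact 95% interval. Limits in CPM printed below beside a level of 0 are those of 3 counts. They take counts as independent, whereas counts of these genes came many to a cell, so such a limit is too low where a single cell could have been missed. Among inhibitor counts, Cdkn1a took 40.3% ± 11.6, Cdkn1c 36.9% ± 15.5, Cdkn1b 19.3% ± 7.8 and Cdkn2c 3.41% ± 2.56 (SD, n = 4). Cdkn1a led in libraries 1 and 2 and Cdkn1c in libraries 3 and 4.

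Rb1, whose protein is the substrate of the CDK4 and CDK6 kinases, was found in 12 of 292 cells. It spans chromosome 14 from 73183673 to 73325822 on the minus strand. Its levels were 13.6, 4.45, 5.14 and 2.68 CPM, in 4, 2, 3 and 3 cells, with library 1 highest. Without the runs of cells library 2 stood at 0.131 CPM. The genes Rcbtb2 and Lpar6 overlap it on the other strand and stood at 85.4 ± 14.9 and 57.7 ± 8.6 CPM, in 124 and 171 cells. Of the 12 cells with an Rb1 count, 8 also had an Lpar6 count. A low count of reads does not show that a transcript is absent, and protein was not measured.

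Ordered by level in CPM, Ccnd2 was above Cdk4 and Cdk4 above Ccnd3 with no overlap between libraries. From Ccnd3 down, the order Cdk6, Cdkn1a, Cdkn1c, Ccnd1, Cdkn1b, Rb1 and Cdkn2c was not resolved between neighbours, since the ranges of each neighbouring pair overlapped. Some genes further apart did not overlap. Ccnd3, at 58.8 CPM or more, lay above Ccnd1, at 38.9 or less, and above Cdkn1b, Rb1 and Cdkn2c. Ccnd1 was also above Cdkn1b, and Cdkn1b above Rb1, in 4 of 4 libraries. Per kilobase of exon, Ccnd2 and Cdk4 overlapped in range although Ccnd2 was higher in 4 of 4 libraries. Cdkn1c followed at 19.1 ± 9.5 CPM per kilobase, then Cdkn1a at 11.4 ± 3.3. By the share of cells, Ccnd2, Cdk4, Ccnd3 and Cdkn1c followed each other without overlap. In bulk levels such as these, fewer positive cells and less RNA per cell cannot be told apart, and the cell counts below separate them as far as depth allows.

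In single cells, Ccnd2 was the highest D cyclin in 268 of the 287 cells with any D cyclin count. Ccnd3 was highest in 13, Ccnd1 in 5, and 1 cell was tied. Libraries 1 to 4 gave 69, 69, 64 and 66 cells led by Ccnd2, so this held throughout. All D cyclin counts came from Ccnd2 in 115 cells. Counts of 2 D cyclins were found in 144 cells, of all 3 in 21, and of none in 5.

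The spread of Ccnd2 between cells was wide. In thinned cells the median was 29, 25, 21.5 and 28 counts per cell in libraries 1 to 4, and the middle cells between the 10th and 90th percentiles ran from 3 to 58. Its coefficient of variation was 0.74, against 0.97 for Cdk4 and 1.97 for Ccnd3, genes with lower counts. The 13 cells without Ccnd2 had a median of 54038 counts and 1921 genes, against 96410 counts and 2995 genes in the other cells. Of these 13 cells, 8 had a count of Ccnd1 or Ccnd3, 6 of Cdk4 and 3 of any of the 4 inhibitor genes.

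Most cells had no count of Cdkn1a, Cdkn1b, Cdkn1c or Cdkn2c. None of these was found in 173 of 292 cells, 1 in 93, 2 in 25 and 3 in 1. After thinning, 44 of 72, 50 of 70, 39 of 64 and 45 of 70 cells of libraries 1 to 4 had none, so the libraries were alike in this. For Cdk4 and Cdk6, 62 cells had neither, 188 had 1 and 42 had both.

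These shares moved with depth. Ccnd3 had a count in 66.3% ± 5.4 of the cells above their library's median depth and in 39.5% ± 5.1 of the others, and Cdk4 in 86.9% ± 4.3 against 62.6% ± 3.4 (SD, n = 4). Cdkn1a was found in 18.5% ± 7.9 against 6.10% ± 3.38, and Cdkn1c in 29.8% ± 16.0 against 16.4% ± 6.2. The share was higher in the deeper cells in 4 of 4 libraries for Ccnd3, Cdk4, Cdk6, Cdkn1a and Cdkn1c, and in 3 of 4 for Ccnd1, Ccnd2, Cdkn1b and Rb1. For Cdkn1b the difference was small, at 13.7% ± 5.3 against 11.6% ± 7.2.

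**Figure D2:**
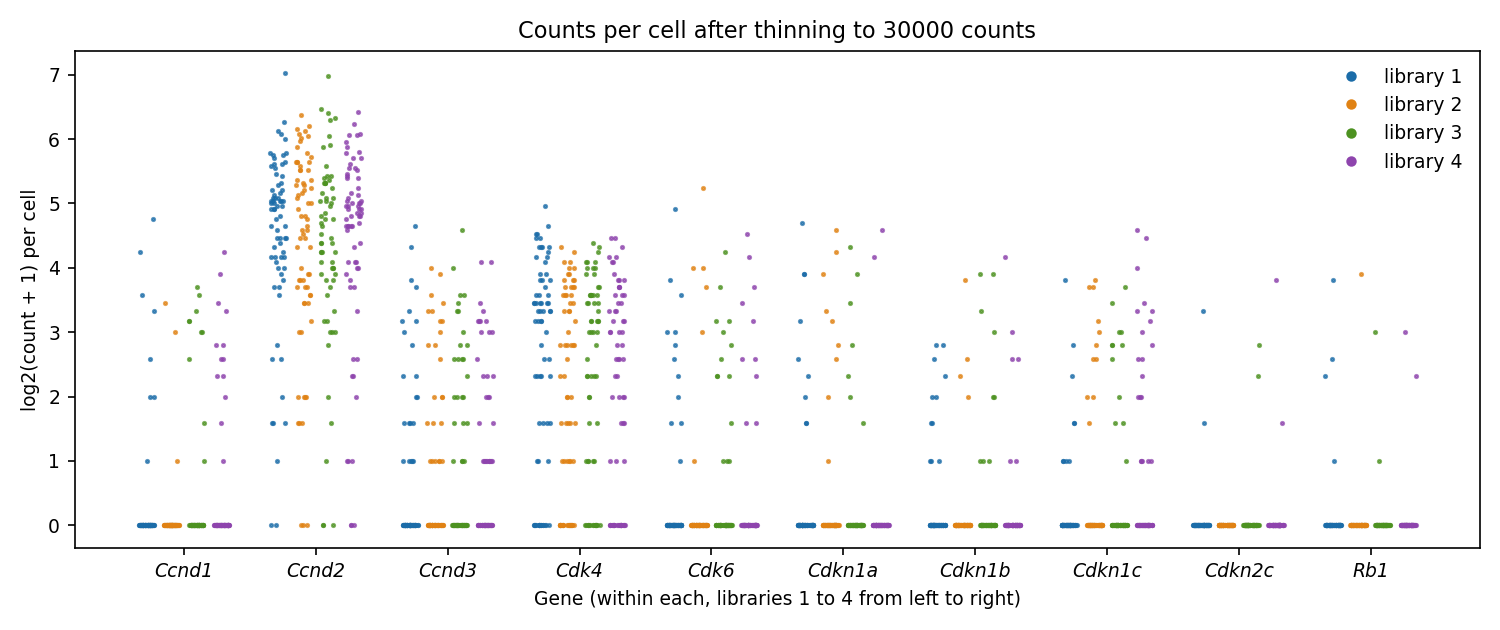
Counts per cell of each gene after thinning to 30000 counts, as log2(count + 1), 1 point per cell with libraries 1 to 4 from left to right within a gene. Ccnd2 is above 0 in 265 of 276 cells and Cdk4 in 200, while Ccnd1, Cdk6 and the inhibitors are at 0 in most cells and reach counts near those of Cdk4 in the few cells that hold them.

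Co-detection was described by the number of thinned cells with both genes of a pair beside the number that the shares of the 2 genes in each library give. Ccnd2 was in 265 of 276 thinned cells, so its pairs with genes of many cells are held near that number whatever their relation. Ccnd2 and Cdk4 were both found in 195 cells, against 192 from their shares, and Ccnd2 and Ccnd3 in 96 against 97.9. Cdk4 and Cdk6 shared 30 cells, against 30.8. The D cyclins of low level, Ccnd1 and Ccnd3, shared 11 cells, against 13.1, and lay below in 4 of 4 libraries. With counts as deposited they shared 22, against 21.7, so no direction was read from this pair.

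Some of the 45 pairs lay above the number from their shares in 4 of 4 libraries, among them Ccnd2 with Cdk4, Cdkn1b, Cdkn1c and Rb1. The margin within a library could be a fraction of a cell. Cdk6 and Cdkn1c shared 1 cell in library 2, where 6 and 11 of 70 cells held them. Cdk4 and Cdkn1a shared 7 in library 1, where 55 and 9 of 72 held them. A direction in 4 of 4 libraries is therefore a weak description here. Ccnd1 and Cdk4 were both found in 31 of the 34 cells with Ccnd1, against 24.6. Cdk4 and Cdkn1a shared 25 of the 27 cells with Cdkn1a, against 19.9, and Cdk4 and Cdkn1b shared 26 of 30, against 22.1. With counts as deposited Cdk4 and Cdkn1a lay above in 3 of 4 libraries. In thinned cells, cells with Cdk4 had a median of 2700.5 genes detected and cells without it 2350.5, and the part of this in the co-detection was not tested. Cdk6 and Cdkn1c shared 12 cells, against 7.93, and Cdkn1b and Cdkn1c shared 9, against 5.41.

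Cdk6 and Cdkn1a shared 2 thinned cells, against 4.09, both in library 3. With counts as deposited the same pair lay above its expected number, with 8 cells against 6.44, so no direction was read from it. Rb1 shared 0 thinned cells with Ccnd1, Cdkn1b and Cdkn1c, where 1.17, 1.12 and 1.60 cells came from the shares. With 9 Rb1 cells these are too few to set apart.

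**Figure D3:**
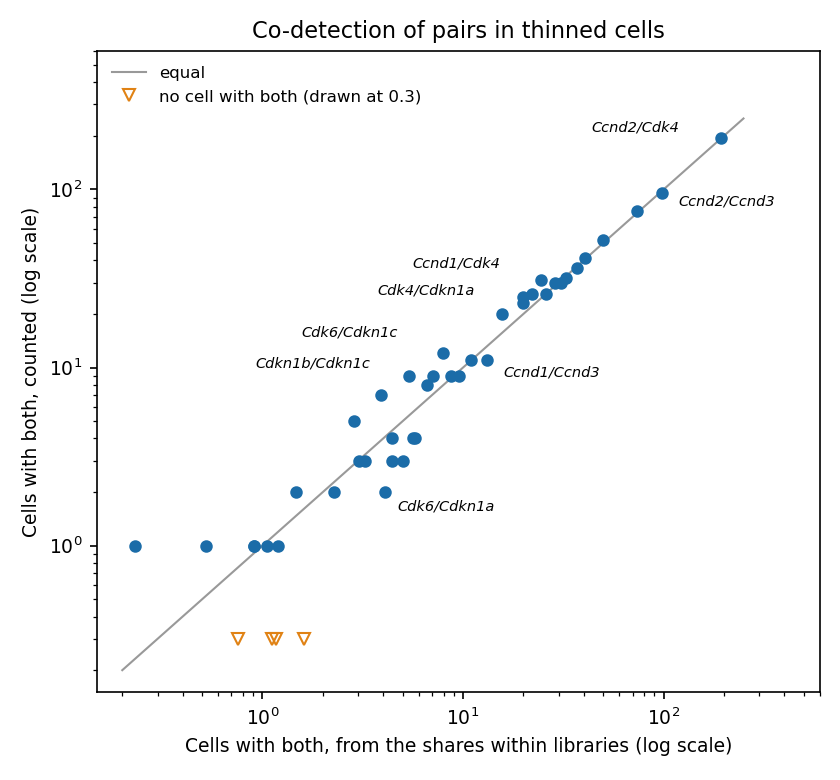
Thinned cells with counts of both genes of each pair (vertical, log scale) against the number from the 2 genes' shares within libraries (horizontal, log scale), 1 point per pair, with the line of equal values. Pairs with Ccnd2, found in 265 of 276 cells, can rise little above the line. They lie on or near it except Ccnd2 with Cdkn2c (4 cells against 5.76). Cdk6 with Cdkn1c and Cdkn1b with Cdkn1c lie above the line, and 4 pairs of rare genes share no cell.

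Among other genes of the same switch, the inhibitor Cdkn2d (p19) had a count in 139 of 292 cells, against 67 for Cdkn1c, and stood at 134 ± 22 CPM (SD, n = 4). Cdk2, which acts with E-type cyclins after CDK4 and CDK6, stood at 76.0 ± 15.04 CPM in 122 cells. Its partners Ccne1 and Ccne2 stood at 8.70 ± 12.5 and 2.34 ± 3.91 CPM, in 6 and 8 cells. The RB relative Rbl2 (p130), known from resting cells, was at 15.1 ± 7.5 CPM and was found in 84 cells, against 12 for Rb1, and Rbl1 (p107) at 20.3 ± 6.9 CPM in 45. Of the E2F genes, E2f4 was found in the most cells, 82, at 39.7 ± 14.1 CPM, and E2f1 in 18 at 10.4 ± 2.4 CPM. Their partners Tfdp1 and Tfdp2 stood at 55.2 ± 17.9 and 72.0 ± 12.9 CPM. The CDK-activating genes Ccnh and Mnat1 stood at 169 ± 18 and 126 ± 10 CPM, and Cdkn2b was found in 1 cell. These CPM are not corrected for length. The list held 31 genes, of which 29 had a row in the table.

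Across cells of a library, Ccnd2, Ccnd3 and Cdk4 were on average barely related to each other. Spearman rho, averaged over libraries 1 to 4, was 0.085 for Ccnd2 with Ccnd3, 0.026 for Ccnd2 with Cdk4 and 0.012 for Ccnd3 with Cdk4. Ccnd2 with Ccnd3 was above 0 in each library, at 0.062 to 0.139. The pairs with Cdk4 differed in sign between libraries, from -0.103 to 0.139 for Ccnd2 and from -0.145 to 0.125 for Ccnd3. Cells of a library share depth and processing, and these are descriptions over 64 to 72 thinned cells per library with no test. Of 4538 genes, those most like Ccnd2 were Rchy1 (mean rho 0.24), Flot1 (0.24) and Gsto1 (0.24), and those least like it Srgn (-0.24), Eif3e (-0.22) and Myb (-0.21). Libraries differed in these values. In library 1 rho was 0.0084 for Rchy1 and -0.041 for Srgn, whereas Gsto1 ran from 0.19 to 0.33 over libraries. From the 1st to the 99th percentile, mean rho with Ccnd2 ran from -0.13 to 0.18. Srgn encodes a proteoglycan of blood cell granules and Myb a transcription factor of progenitors.

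Cdk4 had the highest single value, with G3bp1 (mean rho 0.31, and 0.30, 0.17, 0.37 and 0.38 in libraries 1 to 4), an RNA-binding protein of stress granules. It was followed by Phgdh (0.28), the first enzyme of serine synthesis, and Mrpl15 (0.27), of the mitochondrial ribosome. The lowest were Rps14 (-0.26) and Rps27 (-0.21), of the cytosolic ribosome, and the translation factor Eif3e (-0.23). The percentiles for Cdk4 were -0.12 and 0.20. For Ccnd3, the highest were 1110004F10Rik (0.22), Zfp422 (0.21) and Nfic (0.21), and the lowest G6pc3 (-0.18), Pik3r1 (-0.17) and Gnal (-0.17). With counts as deposited, the values for 1110004F10Rik and G6pc3 were 0.13 and -0.061. The other 7 genes were in too few cells for this.

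Cdkn1a, Cdkn1c and Ccnd2 stood lower in cells with Cd27 transcript in 4 of 4 libraries, and none of them passed the main test. Cells were split by whether the thinned cell had a Cd27 count, a class of transcript that is not the sort gate. It held 36, 41, 35 and 36 cells in libraries 1 to 4, against 36, 29, 29 and 34 without a count. Of the 10 genes, 8 were in at least 5% of thinned cells and entered the test. With edgeR's quasi-likelihood test on sums per library and class, blocked by library, 0 of these 8 passed an adjusted p of 0.05. In this comparison 0.0557% of the 8976 genes tested were called, 5 lower and 0 higher. At an unadjusted p below 0.05 there were 3 of the 8 (Ccnd2, Cdkn1a and Cdkn1c), and 464 of all genes. How many of all tested genes went 1 way in 4 of 4 libraries, or had classes without overlap, was not counted. Here and in the splits below, these descriptions therefore do not show how unusual a gene is.

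Cdkn1a came nearest. Its level was 4.63, 14.6, 10.5 and 0 CPM in cells with a Cd27 count and 66.7, 79.3, 54.0 and 39.2 CPM in cells without. The classes did not overlap. In library 4 only 2 thinned cells had Cdkn1a, with 23 and 17 counts. Its 39.2 against 0 CPM therefore rests on where these 2 cells fell, and the cell with 23 counts lay in a run of cells. The 0 in library 4, of 36 cells, allows up to 2.78 CPM if counts are independent. That limit is too low for counts that come many to a cell. The log2 fold change was -3.35 (95% interval -4.83 to -1.88, edgeR adjusted p = 0.130, lower in 4 of 4 libraries). Of 27 thinned cells with Cdkn1a, 8 had a Cd27 count, against 14.6 from the shares. DESeq2 called it (log2 fold change -3.43, DESeq2 adjusted p = 0.000459), and so did edgeR with no filter on low counts (-3.35, edgeR adjusted p = 0.000716). Over the other alternatives the adjusted p ran from 0.0712 to 0.840, so the call depends on the test and on the filter. Thinned cells with Cdkn1a had a median of 2917 genes detected, against 2600 in the others, and the part of this in the result was not tested.

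Ccnd2 stood at 967, 915, 797 and 874 CPM in cells with a Cd27 count and at 1019, 1025, 1118 and 1079 CPM in cells without. The classes did not overlap, yet the log2 fold change of -0.28 (95% interval -0.53 to -0.03) had an edgeR adjusted p of 0.887. Cdkn1c stood at 10.2, 14.6, 31.4 and 32.4 CPM with and 18.5, 66.7, 39.1 and 99.02 CPM without a Cd27 count. It was lower in 4 of 4 libraries, with a log2 fold change of -1.27 (95% interval -2.38 to -0.15, edgeR adjusted p = 0.884). Cdk4 gave -0.05, and its interval of -0.45 to 0.35 bounds the difference on either side. Ccnd1, Ccnd3, Cdk6 and Cdkn1b were lower in 1 to 3 of 4 libraries. Genes detected per thinned cell differed little between the classes, at medians of 2467 to 2741 with and 2506 to 2658.5 without a Cd27 count. Of myeloid markers, 8 of 8 were in the table and their sum was higher in cells with a Cd27 count in 4 of 4 libraries, at 1608 to 1982 against 1214 to 1495 CPM. Erythroid markers, also 8 of 8, went the other way, at 143 to 266 against 193 to 556 CPM. Lymphoid and multipotent progenitor markers, 5 of 6 in the table, were higher with Cd27 in 4 of 4 libraries, at 110 to 190 against 57.5 to 95.4 CPM. The quiescence list was lower in 4 of 4, at 7344 to 7653 against 8557 to 9840, and so was the platelet list, at 1541 to 1904 against 2163 to 2369. Immediate early and dissociation genes stood at 16642 ± 543 against 22256 ± 5261 CPM, lower in 3 of 4. Their part in these values was not tested.

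**Figure D4:**
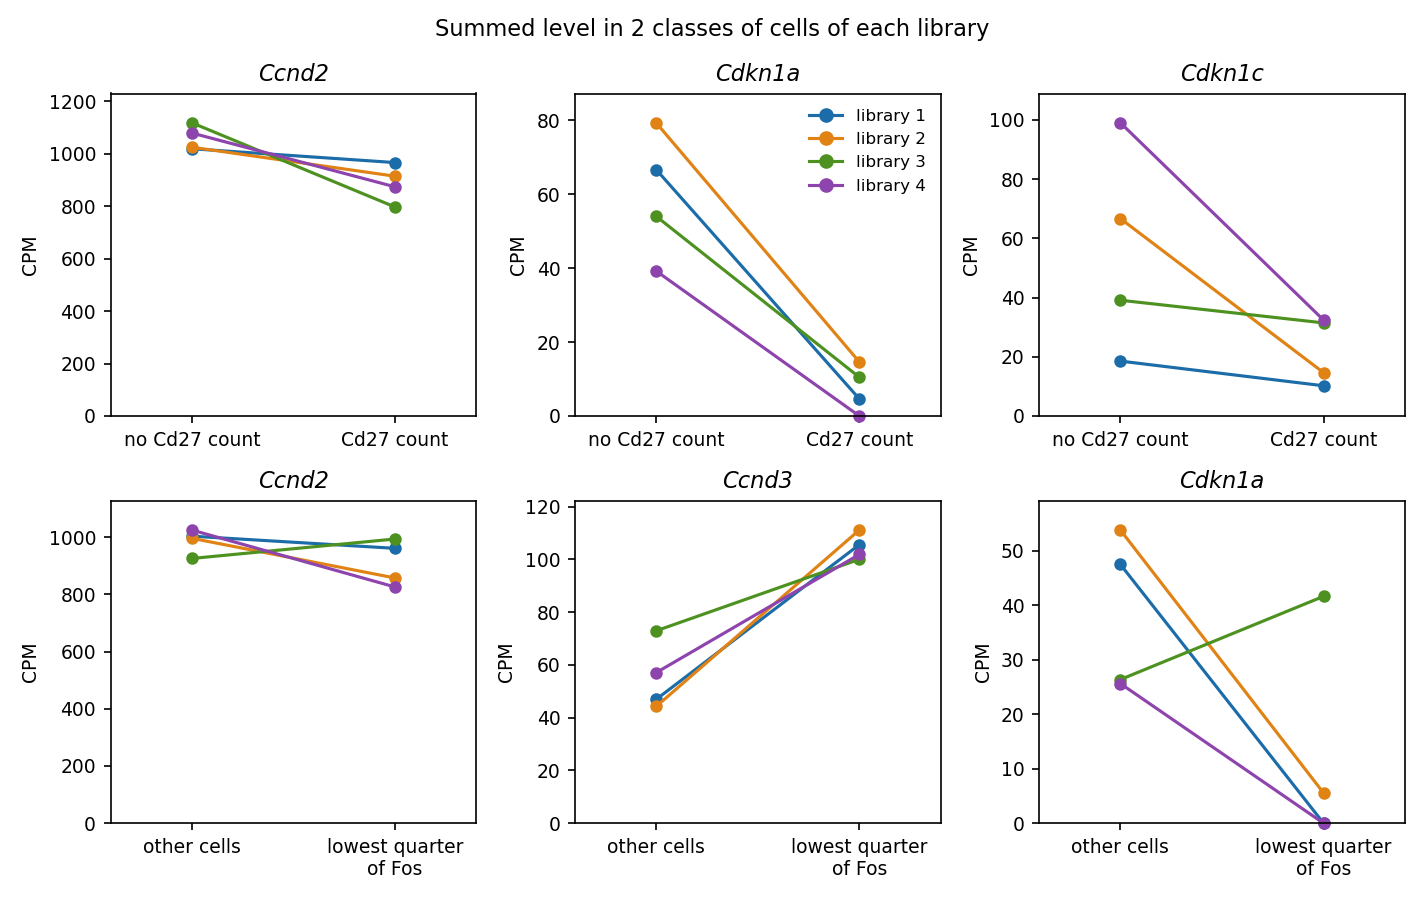
Summed level in CPM of Ccnd2, Cdkn1a and Cdkn1c in thinned cells without and with a Cd27 count (top) and of Ccnd2, Ccnd3 and Cdkn1a in the cells lowest in Fos and the others (bottom), 1 line per library and every vertical axis from 0. Cdkn1a is at or below 14.6 CPM in all libraries with a Cd27 count and at or above 39.2 CPM without, and Ccnd3 is higher in the cells lowest in Fos in 4 of 4 libraries, although neither passed the edgeR test.

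Cells with cycling markers held Ccnd2 and Cdk4 about as often as the shares of these genes give. In them Cdkn1c stood lower in libraries 3 and 4, and Cdkn1b in library 3, where a lower level could be told. Neither passed the test. Cells with counts of at least 2 of 10 cycling markers, such as Mki67 and Top2a, numbered 6, 1, 11 and 8 in libraries 1 to 4, so that library 2 gave 1 cell. Again 0 of 8 tested genes passed in edgeR, where 0.0334% of 8972 genes were called (0.0223% higher and 0.0111% lower). An unadjusted p below 0.05 was reached by 0 of the 8, and by 633 of all genes. DESeq2 called 0 of the 8 with 1 at an unadjusted p below 0.05, beside 881 of all genes. The median log2 fold change of all genes was -0.61, against which single values are to be read.

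Cdk4 stood at 317, 200, 300 and 304 CPM in the cycling class and at 273, 187, 209 and 181 CPM in the other cells. It was higher in 4 of 4 libraries, with a log2 fold change of 0.20 (95% interval -0.70 to 1.11, edgeR adjusted p = 0.956). Cdkn1c stood at 5.56, 0, 27.3 and 0 CPM against 15.2, 36.7, 36.5 and 73.1, and Cdkn1b at 11.1, 0, 3.03 and 0 CPM against 16.2, 12.1, 32.7 and 19.4. Their log2 fold changes of -2.51 and -2.82 had 95% intervals reaching 0.55 for each, with an edgeR adjusted p of 0.784. The zeros of 8 cells in library 4 allow up to 12.5 CPM by the limit of 3 counts. For Cdkn1c this is below the 73.1 CPM of the other cells, where 20 of 62 had a count. Only 6 of 62 other cells had a Cdkn1b count, so 8 cells could all miss it, and a lower level could not be told. The zeros of the 1 cell in library 2 allow up to 100 CPM, and a lower level could not be told there. In library 1 the class held 6 cells, in which 3 counts would give more CPM than any of its Cdkn1c and Cdkn1b levels, also those of the other cells. A lower level could not be told there either. Cdkn1c therefore stood lower in libraries 3 and 4, and Cdkn1b in library 3. Ccnd2 stood at 844, 1167, 627 and 825 CPM against 1007, 957, 1008 and 993, a log2 fold change of -0.49 with an interval of -1.13 to 0.15. Of the 26 cycling cells, 24 had a Ccnd2 count, 22 a Cdk4 count, 15 a Ccnd3 count and 3 a Cdkn1c count, against 24.9, 19.1, 10.1 and 5.26 from the shares. Other marker sums moved with this class. HSC markers, 10 of 10 in the table, stood at 4067 to 6133 CPM in cycling cells and at 6439 to 7843 in the others, and the quiescence list at 5300 to 7139 against 8190 to 8545, both lower in 4 of 4 libraries. Erythroid markers stood at 667 ± 337 against 205 ± 50 CPM, higher in 3 of 4. Their part in the values of the members was not tested.

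Ccnd3 stood higher in cells low in Fos in 4 of 4 libraries, without passing the test. Fos is an early response gene that is also induced by tissue dissociation. The lowest 25% of cells by Fos within each library held 18, 18, 16 and 18 cells, and 17 of 276 cells lay within 20% of the limit. In library 4 this class had a median of 1997 genes per thinned cell, against 2745.5 in the other cells, and 9 of the 17 thinned cells of the runs fell in it. In edgeR 0 of 8 tested genes passed, where 0.267% of 8976 genes were called, 24 lower and 0 higher, 17 of them among the 24 tested genes of the immediate early and dissociation list. At an unadjusted p below 0.05 there were 2 of the 8 (Ccnd3 and Cdkn1a), and 451 of all genes. DESeq2 and limma also called 0 of the 8, with 2 each at an unadjusted p below 0.05, beside 790 and 670 of all genes. With edgeR 0 of the 8 reached this p without the runs of cells, with the stricter class, and without library 1, library 2 or library 4.

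Ccnd3 stood at 106, 111, 100 and 102 CPM in the Fos-low cells and at 46.9, 44.2, 72.9 and 57.1 CPM in the others. The classes did not overlap. The log2 fold change was 0.95 (95% interval 0.11 to 1.79, edgeR adjusted p = 0.930), with a second random thinning it was 0.54, with unthinned counts 0.42, and without the runs of cells 0.85. Cdkn1a stood at 0, 5.56, 41.7 and 0 CPM against 47.5, 53.8, 26.4 and 25.6, lower in 3 of 4 libraries and higher in library 3. Its log2 fold change was -3.22 (95% interval -6.01 to -0.43, edgeR adjusted p = 0.930). Without the runs of cells it was -1.49, and with the stricter class -1.29. The zeros, of 18 cells each, allow up to 5.56 CPM. Ccnd2 gave -0.12 (interval -0.42 to 0.18) and Cdk4 -0.43 (interval -1.02 to 0.16). In library 4 Cdk4 stood at 79.6 CPM in the Fos-low cells against 235 in the others, and in library 1 at 280 against 275.

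Splitting cells by the genes themselves called few other genes. The fits were made for genes with a count in at least 5 and no count in at least 5 thinned cells of each library (Ccnd3, Cdk4, Cdk6 and Cdkn1c) and, for Ccnd2, above against at or below the library's median. For the splits by Ccnd2, Ccnd3, Cdk4 and Cdkn1c edgeR called 0.0% of 8976 genes, and for Cdk6 0.0111%. In none of these did any of the 7 other tested members pass. At an unadjusted p below 0.05, edgeR gave 461, 329, 409 and 385 genes for the first 4 splits, DESeq2 called 5, 3, 5 and 0, and limma on mean log values called 1, 0, 3 and 0.

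Above the median of Ccnd2, Ccnd3 stood at 100, 82.9, 78.1 and 70.6 CPM, against 25.2, 40.0, 81.3 and 66.7 below, with library 3 in the other direction (log2 fold change 0.71, 95% interval -0.15 to 1.56, edgeR adjusted p = 0.962). In the reverse split, Ccnd2 stood at 1124, 1038, 1014 and 1033 CPM in cells with Ccnd3 and at 935, 920, 894 and 929 CPM in cells without. These did not overlap. The log2 fold change of 0.18 (95% interval -0.05 to 0.42) had an edgeR adjusted p of 0.999. Of the 276 cells, 66 lay within 20% of the Ccnd2 median.

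In cells with a Cdk4 count, Ccnd1 stood at 46.1, 12.2, 42.9 and 54.6 CPM, against 0, 0, 15.6 and 14.5 in cells without. Ccnd1 was higher in 4 of 4 libraries (log2 fold change 3.03, 95% interval 0.58 to 5.48, edgeR adjusted p = 0.982). Its zeros rest on 17 cells in library 1 and 21 in library 2. Only 8 and 3 thinned cells of these libraries had Ccnd1, too few to tell a direction there. Cdkn1a stood at 23.0, 59.2, 39.5 and 28.4 CPM with Cdk4 and at 76.5, 0, 0 and 0 CPM without, so that library 1 went the other way. In the same split 0 of 26 tested S phase genes were called, and their median log2 fold change was 0.85, against 0.19 over all genes. Of them 96.2% were above 0, against 62.6% of all genes. Their summed level was 1746 ± 538 CPM with Cdk4 and 1231 ± 158 without, higher in 4 of 4 libraries. Of the G1/S and RB-E2F list, 0 of 22 tested genes were called, with a median of 0.50. The shift was not particular to these lists. The median was 1.34 for 13 tested G2/M genes, 3.37 for 5 cycling markers and 0.47 for 15 p53 targets, with 0 called. It was 0.17 for the immediate early and dissociation list and -0.03 for the quiescence list. Cells with Cdk4 had more genes detected in every library, at 2512 to 2748 against 2239 to 2411, and HSC markers, 10 of 10 in the table, summed to less in 4 of 4, at 6820 ± 546 against 7699 ± 722 CPM. The quiescence list was lower with Cdk4 in 4 of 4 libraries, at 7687 to 8322 against 8657 to 8903 CPM, and lymphoid and multipotent progenitor markers were higher in 4 of 4, at 130 ± 23 against 79.2 ± 19.6. The part of these in the S phase values was not tested.

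In cells with a Cdk6 count, 1 gene was called, Cd74, the invariant chain of MHC class II (log2 fold change -1.70, edgeR adjusted p = 0.00299). Without library 2, and without library 4, 0 genes were called in this split. Cdkn1a stood at 0, 0, 14.3 and 0 CPM with Cdk6 and at 42.8, 45.3, 34.7 and 22.2 CPM without, which did not overlap (log2 fold change -4.25, 95% interval -7.49 to -1.005, edgeR adjusted p = 0.964). The co-detection of this pair lay on the other side with counts as deposited, as given above. Cdkn1b stood at 19.4, 0, 0 and 0 CPM against 15, 13.02, 35.3 and 20.0. Cdkn1c was higher with Cdk6 in 3 of 4 libraries, at 5.56, 44.4, 57.1 and 167 CPM against 16.1, 35.4, 28.7 and 47.8, with library 4 highest. The Cdk6 class held 12, 6, 14 and 10 cells, so its zeros allow up to 16.7 CPM in library 2.

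Cells with a Cdkn1c count numbered 9, 11, 12 and 20, and in these Cdkn1b was higher in 3 of 4 libraries, at 29.6, 27.3, 22.2 and 38.3 CPM against 13.8, 9.04, 28.8 and 8.67. All 52 had a Ccnd2 count, against 49.9 from the shares. Myeloid markers, 8 of 8 in the table, summed to 1196 to 1433 CPM in cells with Cdkn1c and 1481 to 1872 in cells without, lower in 4 of 4 libraries. The same held for Cdkn1b, at 985 to 1389 against 1529 to 1808 CPM. It also held for cells above the Ccnd2 median, at 1277 to 1614 against 1605 to 1950 CPM. In the splits by Ccnd3, Cdk4 and Cdk6 the libraries differed in direction. These sums were not tested.

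The 27 thinned cells with Cdkn1a were described through the genes of p53 signalling, since p21 is a p53 target. The 22 genes of the p53 list summed to 1770, 1422, 1362 and 1917 CPM in cells with Cdkn1a and to 1279, 1305, 1321 and 1285 in cells without. The sum was higher in 4 of 4 libraries. The list also holds Trp53, which encodes p53 itself and stood at 301 ± 51 against 318 ± 33 CPM. Single targets differed in direction. Btg2, which is also an immediate early gene, had a count in 23 of the 27 cells and in 93 of the 249 others, and stood at 457 ± 110 against 205 ± 37 CPM, which is most of the difference between the sums. The immediate early and dissociation list, which also holds Btg2, summed to 26796 ± 10190 CPM with Cdkn1a and 18490 ± 1364 without, higher in 3 of 4 libraries and lower in library 3. Mdm2, the p53 ubiquitin ligase and a defining target, stood at 44.4 ± 36.8 against 93.0 ± 17.1 CPM and was lower in 4 of 4 libraries. Ccng1 stood at 70.8 ± 22.5 against 72.8 ± 21.9 and Bax at 85.7 ± 81.5 against 110 ± 12. All 27 cells had a Fos count, as did 236 of the 249 others. Library 4 held 2 of the 27 cells, Cdkn1a was in too few cells for a fit of its own, and none of these values was tested.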

How the data were processed

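RNA of single cells was measured in 4 libraries. Per the labels' protocols, cells were sorted into tubes, a barcode was added to each at reverse transcription, and pooled cDNA was enriched for 3′ ends. Per the submitters' processing notes, Trimmomatic 0.36, HISAT2 2.1.0, HTSeq 0.9.1 and GRCm38 were used. The deposited table holds raw counts, whole numbers with no normalization, and collapsing by molecular identifier is not stated.

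Cells with at least 10000 counts and 1000 genes were kept. No doublet caller was run, since per the labels the sort settings avoided doublets. Levels are CPM of counts summed per library. For tests, cells were thinned to 30000 counts, and counts were summed per library and class of cells. Genes in at least 5% of thinned cells were tested with edgeR 4.0.16 (quasi-likelihood, TMM factors, library as a block, Benjamini-Hochberg over all genes tested, threshold 0.05, two-sided), checked on simulated data. The block was the library itself, from which both classes came. Ccnd1, Cdkn1a, Cdkn1b, Cdkn2c and Rb1 were in under 5 thinned cells of some library and had no fit of their own. The split gene, and the 10 cycling markers in the cycling fit, were left out of the genes tested. Spearman rho used genes in at least 20% of thinned cells. Gene positions and exon lengths came from GENCODE M21. The alternatives were DESeq2 1.42.0, limma 3.58.1 on mean log values, RLE factors, no filter, unthinned counts, a second seed, no block, stricter classes and leaving out each library. The genes, lists and tests were chosen with earlier results of these data known. Named were all 10 genes in every comparison, up to 5 called genes at either end of each fit by a member, and the 3 highest and 3 lowest correlates of the same sign in 4 of 4 libraries. Genes of the pathway and p53 lists printed singly were chosen after their values were seen.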

Additional observations from a re-analysis of the deposited data

Results flagged for a closer look

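The level of Ccnd2 in library 3 lay apart from those of the other libraries, at 827 CPM against 1011 to 1033 CPM. In thinned cells it stood at 943 CPM against 960 to 993, and as a mean over single cells at 917 against 928 to 987. The share of thinned cells with a Cdkn2c count in library 2 was 0% and lay apart from the shares in the other libraries, where 2 cells each had a count. A sample far from the others is marked in about 1 in 20 groups by chance, and 20 groups were looked at.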

How the results depend on the processing

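Under the alternatives, 0 members passed in any split, with the exception of Cdkn1a in the Cd27 split, which gave 1 with DESeq2 and 1 with no filter on low counts. Of the log2 fold changes of members examined, 241 kept their direction and their side of the threshold and 3 reversed, all near 0: Cdk4 in the Cd27 split (0.053 with limma, 0.039 without the runs of cells) and Ccnd2 in the Fos split (0.0041 with unthinned counts). Counts of all genes called moved more, and the cause was not tested. With DESeq2 they were 34 in the Cd27, 21 in the cycling, 5 in the Ccnd2, 3 in the Ccnd3 and 5 in the Cdk4 split. With no filter on low counts they were 38 in the Cd27, 6 in the cycling, 44 in the Fos, 6 in the Ccnd2, 5 in the Ccnd3, 4 in the Cdk4 and 8 in the Cdk6 split. With unthinned counts they were 0 in the Cd27, cycling and Cdk6 splits and 1 in the Ccnd2 split. With limma they were 14 for Cd27, 1 for Ccnd2, 3 for Cdk4 and 3 for Cdk6. The second thinning gave 10 for cycling, and stricter classes gave 23 for cycling, 2 for Cdk6 and 3 for Cdkn1c. A stricter class was not run for the Ccnd2 median. With no replicate block they were 6 for cycling and 0 for Cdk6, and the block changed no call of a member. Leaving out each library in turn gave 4 to 11 for Cd27 (11 without library 4), 0 to 17 for cycling (0 without library 3, 17 without library 2), 12 to 20 for Fos (12 without library 1, 13 without library 2), 0 to 1 for Ccnd3 (1 without library 2) and 0 to 3 for Cdk6 (3 without library 1, 2 without library 3, 0 without library 2 or library 4). With at least 3 counts asked for, the share of cells with Ccnd3 was 34.6% and with Cdk4 68.5%. Depth limits the genes found in few cells, and a Cdkn2c or Rb1 count missing from a cell does not show that the cell lacks the transcript.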
